A study of Homo sapiens with 2 samples.

Results

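The genes described here are 10 effector genes of the mesenchymal state: VIM, ACTA2 and TAGLN of the cytoskeleton, FN1, TNC, SPARC, TGFBI and CCN2 of the extracellular matrix, and the signalling genes AXL and WNT5A. They were taken by RefSeq symbol, and each was studied over its gene span plus 20 kb on either side in hg38, called its window here. They are 10 of 19974 protein-coding genes on the autosomes and chromosome X in the RefSeq table used, and their windows held 79 of the 258195 hypoxia peaks and 60 of the 120033 normoxia peaks. The data were chromatin immunoprecipitation sequencing (ChIP-seq) peak lists of histone H4 acetylated at lysine 5 (H4K5ac) from FaDu, an established head and neck squamous cancer cell line. One library came from cells held for 18 h in 1% oxygen (hypoxia) and the other from cells in normoxia, and both groups shared the same line and culture medium. The sample titles name H4K5ac, whereas the series' design text names acetylation of H3, and the mark is given here as in the titles. The culture protocol mentions METTL4 knockdown, but no label assigns it to either library. With 1 library per condition, no difference between conditions has a replicate check and none was tested.

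H4K5ac is found at active promoters and enhancers, where bromodomain proteins can bind acetylated histone tails. In epithelial-mesenchymal transition (EMT), epithelial cells give up keratin-based, tightly joined organisation and gain vimentin filaments, contractile actin and a fibronectin-rich matrix. The 10 genes are commonly used readouts of that change, and several are also expressed by carcinoma cells that keep epithelial features. The comparison bears on where the mark lay around such genes in hypoxic cells and in normoxic cells.

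Promoter sequences, 250 bases before to 50 after each annotated start, were available from RefSeq (GRCh38.p14, the assembly that hg38 names) for 9 of the 10 genes, at 12 starts. TAGLN is the gene without an entry. The 6 shown here are those on which the start results below turn: the gene with the highest start fold (CCN2), the gene marked at its start in hypoxia only (SPARC), both starts of ACTA2, the AXL start with the most motif matches, and VIM, whose start base lay outside its peak. Capitals mark matches on either strand to ACGTG or GCGTG, the core spellings of the hypoxia response element, to CACCTG, an E-box spelling bound by SNAI and ZEB repressors, and to GGAATG, the site of TEAD factors. The pair of hypoxia response spellings differ in their first base, so they cannot match the same bases on 1 strand. All are written 5′ to 3′ on the gene's strand.
CCN2, chr6:131951323-131951622, minus strand: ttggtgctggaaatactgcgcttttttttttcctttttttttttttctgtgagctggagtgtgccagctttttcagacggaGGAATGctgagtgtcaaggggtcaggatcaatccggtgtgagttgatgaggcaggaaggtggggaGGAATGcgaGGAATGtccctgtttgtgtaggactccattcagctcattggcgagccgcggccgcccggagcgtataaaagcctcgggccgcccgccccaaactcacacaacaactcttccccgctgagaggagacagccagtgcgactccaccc
SPARC, chr5:151686866-151687165, minus strand: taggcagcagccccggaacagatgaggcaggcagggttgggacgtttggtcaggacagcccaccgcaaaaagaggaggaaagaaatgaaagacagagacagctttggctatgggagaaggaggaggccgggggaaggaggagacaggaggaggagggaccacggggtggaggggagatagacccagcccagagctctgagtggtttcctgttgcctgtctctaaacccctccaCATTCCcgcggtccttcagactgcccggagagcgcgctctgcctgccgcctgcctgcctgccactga
ACTA2 upstream start, chr10:88991288-88991587, minus strand: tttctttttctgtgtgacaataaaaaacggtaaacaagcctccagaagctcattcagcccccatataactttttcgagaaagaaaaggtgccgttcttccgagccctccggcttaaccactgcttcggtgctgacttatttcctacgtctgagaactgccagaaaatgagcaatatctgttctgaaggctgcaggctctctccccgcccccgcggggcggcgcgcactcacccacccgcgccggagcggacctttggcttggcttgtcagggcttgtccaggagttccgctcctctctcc
ACTA2 downstream start, chr10:88952724-88953023, minus strand: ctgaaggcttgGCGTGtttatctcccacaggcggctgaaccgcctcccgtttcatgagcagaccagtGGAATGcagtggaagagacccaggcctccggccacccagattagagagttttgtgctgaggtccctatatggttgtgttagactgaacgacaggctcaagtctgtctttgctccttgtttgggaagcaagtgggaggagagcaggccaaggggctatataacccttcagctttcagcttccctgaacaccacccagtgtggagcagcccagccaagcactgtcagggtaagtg
AXL downstream start, chr19:41226505-41226804, plus strand: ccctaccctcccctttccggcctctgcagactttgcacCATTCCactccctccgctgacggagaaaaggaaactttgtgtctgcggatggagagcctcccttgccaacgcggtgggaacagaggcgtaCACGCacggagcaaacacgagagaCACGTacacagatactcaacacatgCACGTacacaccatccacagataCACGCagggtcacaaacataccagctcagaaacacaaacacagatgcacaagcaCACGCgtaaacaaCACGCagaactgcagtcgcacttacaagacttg
VIM, chr10:17227991-17228290, plus strand: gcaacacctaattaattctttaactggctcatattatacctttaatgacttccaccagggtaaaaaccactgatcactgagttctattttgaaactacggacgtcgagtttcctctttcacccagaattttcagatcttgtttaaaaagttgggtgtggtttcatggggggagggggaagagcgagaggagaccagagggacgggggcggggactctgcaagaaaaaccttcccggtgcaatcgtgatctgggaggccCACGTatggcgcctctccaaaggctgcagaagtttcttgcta

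The CCN2 promoter held 3 copies of GGAATG, and this spelling was present in 4 of the 12 member promoters against 12.2% of 22130 promoters of protein-coding genes. ACGTG was found in 2 of the 12, against 23.1% of all promoters, and GCGTG in 4, against 43.0%. The AXL downstream start had 7 matches in all, the most among the 12. CACCTG was present in 2 of the 12, at the upstream starts of AXL and WNT5A, against 4422 of the 22130, which is a like share. No match to the AP-1 site TGANTCA was found in the 12, against 6.15% of all promoters. None was found to CCWWWWWWGG (W is A or T), the strict CArG spelling of serum response factor, against 1.25%. Looser CArG spellings were not searched, so a CArG box spelled otherwise is not shown to be absent from these promoters. A match describes the letters and not binding.

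Every member with an annotated start had an H4K5ac peak within 1 kb of a start in hypoxia, and all but SPARC had one in normoxia. That is 9 of 9 genes in hypoxia, where 81.4% of 15813 protein-coding genes with a listed start had such a peak, and 8 of 9 in normoxia, where 72.4% did. SPARC was thus the only member of the 9 marked at the start in hypoxia alone, a pattern seen at 9.68% of all genes. A strong peak, meaning one with a deposited −log10 q-value of at least 10, was present at the start of 7 of 9 members in hypoxia (69.4% of all genes) and of 7 of 9 in normoxia (63.7% of all genes). SPARC and WNT5A were the members without one in either list. These shares are close to those of genes in general.

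**Figure D1:**
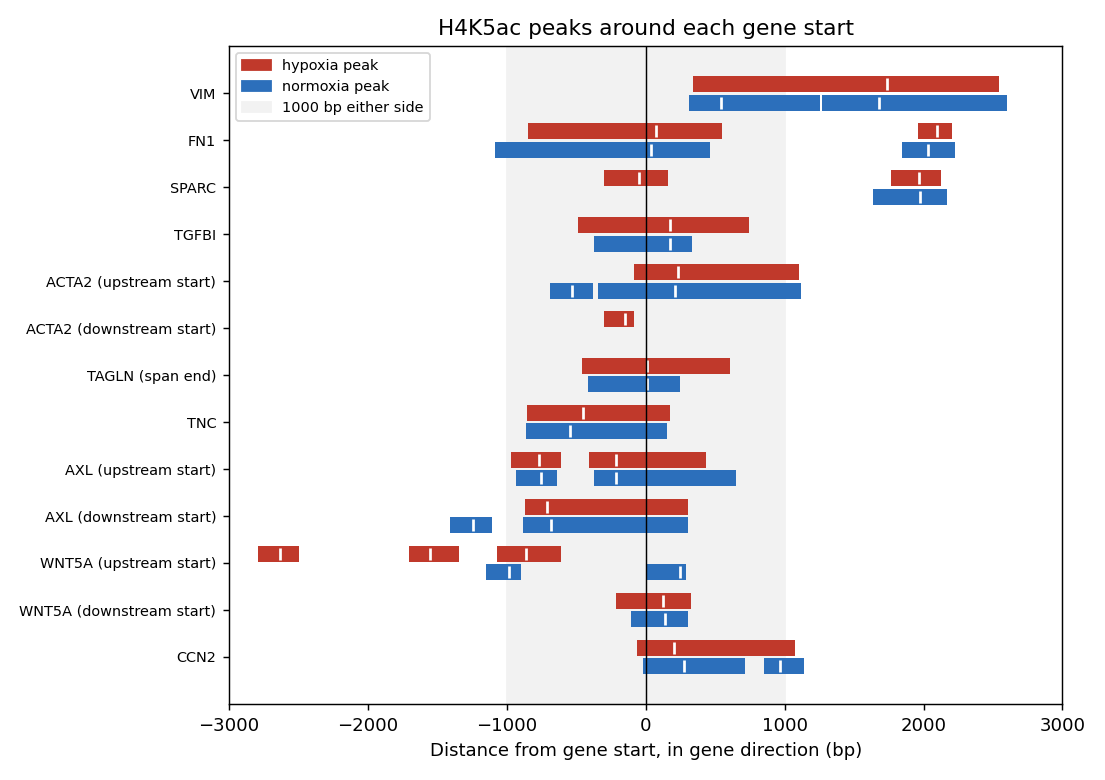
H4K5ac peaks around each annotated start of the members, with the hypoxia library (red) above the normoxia library (blue) for each start; the x axis is distance in bp in the direction of the gene, white ticks are summits (the gap between the 2 adjoining VIM normoxia peaks is not one) and the grey band is 1000 bp either side. TAGLN is drawn from the low-coordinate end of its span; SPARC and the ACTA2 downstream start have a hypoxia peak and no normoxia peak in the grey band.

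VIM encodes the intermediate filament protein vimentin, the most used mesenchymal marker. Its window (gene at chr10:17228241-17237593) held 3 hypoxia peaks and 4 normoxia peaks, and every one of them overlapped a peak of the other library. The start was flanked on its downstream side in both libraries: the hypoxia peak began 344 bp and the normoxia peak 314 bp past the start base. In hypoxia 1 region of 2201 bp (fold 6.44) overlapped what normoxia gave as 2 adjoining peaks, the second 1332 bp wide (folds 4.21 and 4.50). An antisense RNA gene, VIM-AS1, has a start 1744 bp into VIM, so this region cannot be assigned to VIM alone. The highest VIM window fold lay upstream, 11.4 kb from the start, at 12.5 in hypoxia and 8.45 in normoxia.

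ACTA2 encodes smooth muscle α-actin, the contractile actin of myofibroblasts, and its 2 annotated starts differed. At the upstream start the hypoxia peak was 1186 bp wide (fold 11.1, −log10 q-value 103) and the normoxia peak 1464 bp wide (fold 7.10, −log10 q-value 48.0). The starts of FAS, a death receptor gene on the opposite strand, lie 94, 423 and 539 bp from that ACTA2 start, so the peak is shared ground between the 2 genes. At the downstream start, deep inside the longer transcript, hypoxia had a peak of 219 bp with its summit 148 bp upstream of the start. Its fold was 3.07 and its −log10 q-value 2.70. No normoxia peak lay within 1 kb of it. The hypoxia peak there held 12 reads at its summit and its width was close to the narrowest in the list (215 bp). The downstream promoter is poor in CpG, with 6 CpG dinucleotides, and of the 560 promoters with that number 53.6% had a hypoxia peak within 1 kb and 36.3% a normoxia peak. Across the ACTA2 window there were 9 hypoxia and 10 normoxia peaks, of which 5 and 5 overlapped the other list. Inside ACTA2, between 15.7 and 17.4 kb past the upstream start, hypoxia had 4 peaks and normoxia 2. The strongest of them, at 15.7 kb in both libraries, had a fold of 5.66 in hypoxia and 5.26 in normoxia, and the normoxia peak of 756 bp there overlapped 2 hypoxia peaks of 356 and 265 bp.

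TAGLN encodes transgelin, an actin-binding protein of smooth muscle. With no annotated start in the table, its peaks are placed by its span (chr11:117199294-117207465). A peak over the low-coordinate end was found in both libraries, with summits 3 bp apart, a hypoxia width of 1063 bp and a normoxia width of 666 bp. Within their own lists the folds were 5.21 in hypoxia and 3.31 in normoxia. The normoxia peak lay wholly within the hypoxia peak. TAGLN had 7 hypoxia and 2 normoxia peaks in its window, and 5 of the hypoxia peaks overlapped no normoxia peak. None of those 5 was strong, and their folds were 2.57 to 4.43. The other shared TAGLN window peak lay at the start of the neighbouring gene SIDT2 and had the highest folds of the window, 6.81 in hypoxia and 5.19 in normoxia.

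FN1 and TNC encode fibronectin and tenascin-C, large glycoproteins of the matrix. FN1 (chr2:215360865-215436068) had a start peak of 1398 bp in hypoxia and 1547 bp in normoxia, with summits 35 bp apart; its fold over the background of its own library was 8.49 in hypoxia and 4.61 in normoxia, values that are not a measure of change between libraries. This peak also covers the divergent transcript gene FN1-DT, whose nearest start is 239 bp away. The FN1 window held 6 hypoxia and 4 normoxia peaks, and the start peak was the only strong one in each list. A second shared FN1 peak lay 2.09 kb from the start in hypoxia and 2.03 kb in normoxia. Further into FN1, hypoxia had 3 peaks between 25.4 and 26.6 kb from the start, of which 1 overlapped the single normoxia peak there, at 26.0 kb. TNC (chr9:115019575-115118157) had a start peak of 1032 bp in hypoxia and 1014 bp in normoxia, which shared 1008 bp. Both TNC start summits lay upstream, by 448 bp in hypoxia and 546 bp in normoxia. Near the far end of TNC, 81.6 kb from the start, hypoxia had a peak with a fold of 7.08 and normoxia one with 5.40. Between 27.4 and 40.9 kb into TNC there were 5 hypoxia peaks and no normoxia peak, the strongest with a −log10 q-value of 11.5. Of these, 3 lay beside the start of an uncharacterised gene, LOC124902255. TNC had 10 hypoxia and 6 normoxia window peaks.

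SPARC encodes osteonectin, a collagen-binding matricellular protein, and was the only member marked within 1 kb of a start in hypoxia alone. Its hypoxia start peak (chr5:151686755-151687216) was 462 bp wide with its summit 49 bp upstream of the start. Its fold was 3.80 and its −log10 q-value 7.96, and the summit held 29 reads over a local background of 6.90 reads. The nearest peak in normoxia had its summit 1974 bp inside the gene, where hypoxia also had one at 1964 bp, with folds of 5.96 in hypoxia and 4.90 in normoxia. With the start window widened to 2000 bp either side, that shared peak counted and SPARC was marked in both lists, and with strong peaks alone it was marked in neither. Upstream of SPARC, 9.85 to 15.7 kb from the start, hypoxia had 5 peaks and normoxia 1, and none of them was strong. The SPARC window held 12 hypoxia peaks, of which 5 overlapped a normoxia peak, and 7 normoxia peaks, of which 4 overlapped a hypoxia peak. The highest SPARC window folds were 6.33 in hypoxia, 40.5 kb from the start beyond the far end of the gene, and 4.90 in normoxia. Its promoter has 11 CpG dinucleotides, and of the 347 promoters with that number 71.5% had a hypoxia peak within 1 kb and 52.2% a normoxia peak.

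TGFBI encodes a matrix protein that is induced by transforming growth factor beta, and CCN2 a matricellular growth factor. TGFBI (chr5:136028988-136063818) had start peaks with summits 2 bp apart. The hypoxia peak, 1231 bp wide with a −log10 q-value of 60.6, contained the whole normoxia peak of 702 bp, whose −log10 q-value was 11.4. The TGFBI window held 11 peaks in each library and 6 of each overlapped, so 5 in each did not. The unpartnered hypoxia peaks lay inside TGFBI or beyond its end, from 12.2 to 51.8 kb past the start. The unpartnered normoxia peaks lay 7.79, 8.75 and 17.2 kb before the start and 8.37 and 14.1 kb past it. CCN2 (chr6:131948176-131951372) had the highest start fold of the members in both lists, at 14.2 in hypoxia and 8.52 in normoxia. Its summit held 197 reads over a background of 12.9 in hypoxia and 91 reads over 9.80 in normoxia. In hypoxia 1 peak of 1138 bp ran from 65 bp before the CCN2 start to 1072 bp inside the gene. In normoxia the same ground held 2 peaks of 736 and 287 bp. The 3 GGAATG matches shown above begin at -169, -104 and -95 from the CCN2 start, upstream of the near edge of the peak in both libraries. Outside that region the CCN2 window held 2 weak hypoxia peaks and no normoxia peak.

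AXL encodes a receptor tyrosine kinase whose ligand is GAS6. Both annotated AXL starts (gene at chr19:41219223-41261766) were marked in both libraries. At the upstream start the nearest peaks had summits 3 bp apart, with folds of 4.36 in hypoxia and 3.67 in normoxia. At the downstream start the peaks were 1179 bp wide in hypoxia and 1186 bp in normoxia and shared 1174 bp, with folds of 6.39 and 5.11. Peaks around AXL stood on a high local background. Its median over the AXL window peaks was 4.10 times the median of the hypoxia list and 4.14 times that of the normoxia list, against 0.761 to 1.72 and 0.670 to 2.03 times for the other members. The part of this background in the AXL results was not tested. The highest peak in the AXL window lay in its flank near the start of HNRNPUL1, an RNA-binding protein gene, with a fold of 9.21 in hypoxia and 6.97 in normoxia.

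WNT5A encodes a secreted ligand of noncanonical WNT signalling, and was the only member with no strong peak in its window in either list. The window (gene at chr3:55465715-55505263) held 9 hypoxia and 7 normoxia peaks. At the downstream start, the hypoxia peak was 541 bp wide with a fold of 4.56, and the normoxia peak was 410 bp wide with a fold of 4.51 and lay wholly within it. At the upstream start the lists differed in position. Hypoxia had 1 peak within 1 kb, with its summit 865 bp upstream and an edge no closer than 608 bp. Normoxia had a peak with its summit 987 bp upstream and another of 275 bp with its summit 247 bp inside the gene, at a fold of 2.65. The upstream start lies beside WNT5A-AS1, an antisense RNA gene starting 312 bp away. WNT5A promoters are not poor in CpG, with 21 and 22 dinucleotides against a median of 21 over all promoters, and 94.2% and 95.9% of promoters with those numbers had a hypoxia peak.

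**Figure D2:**
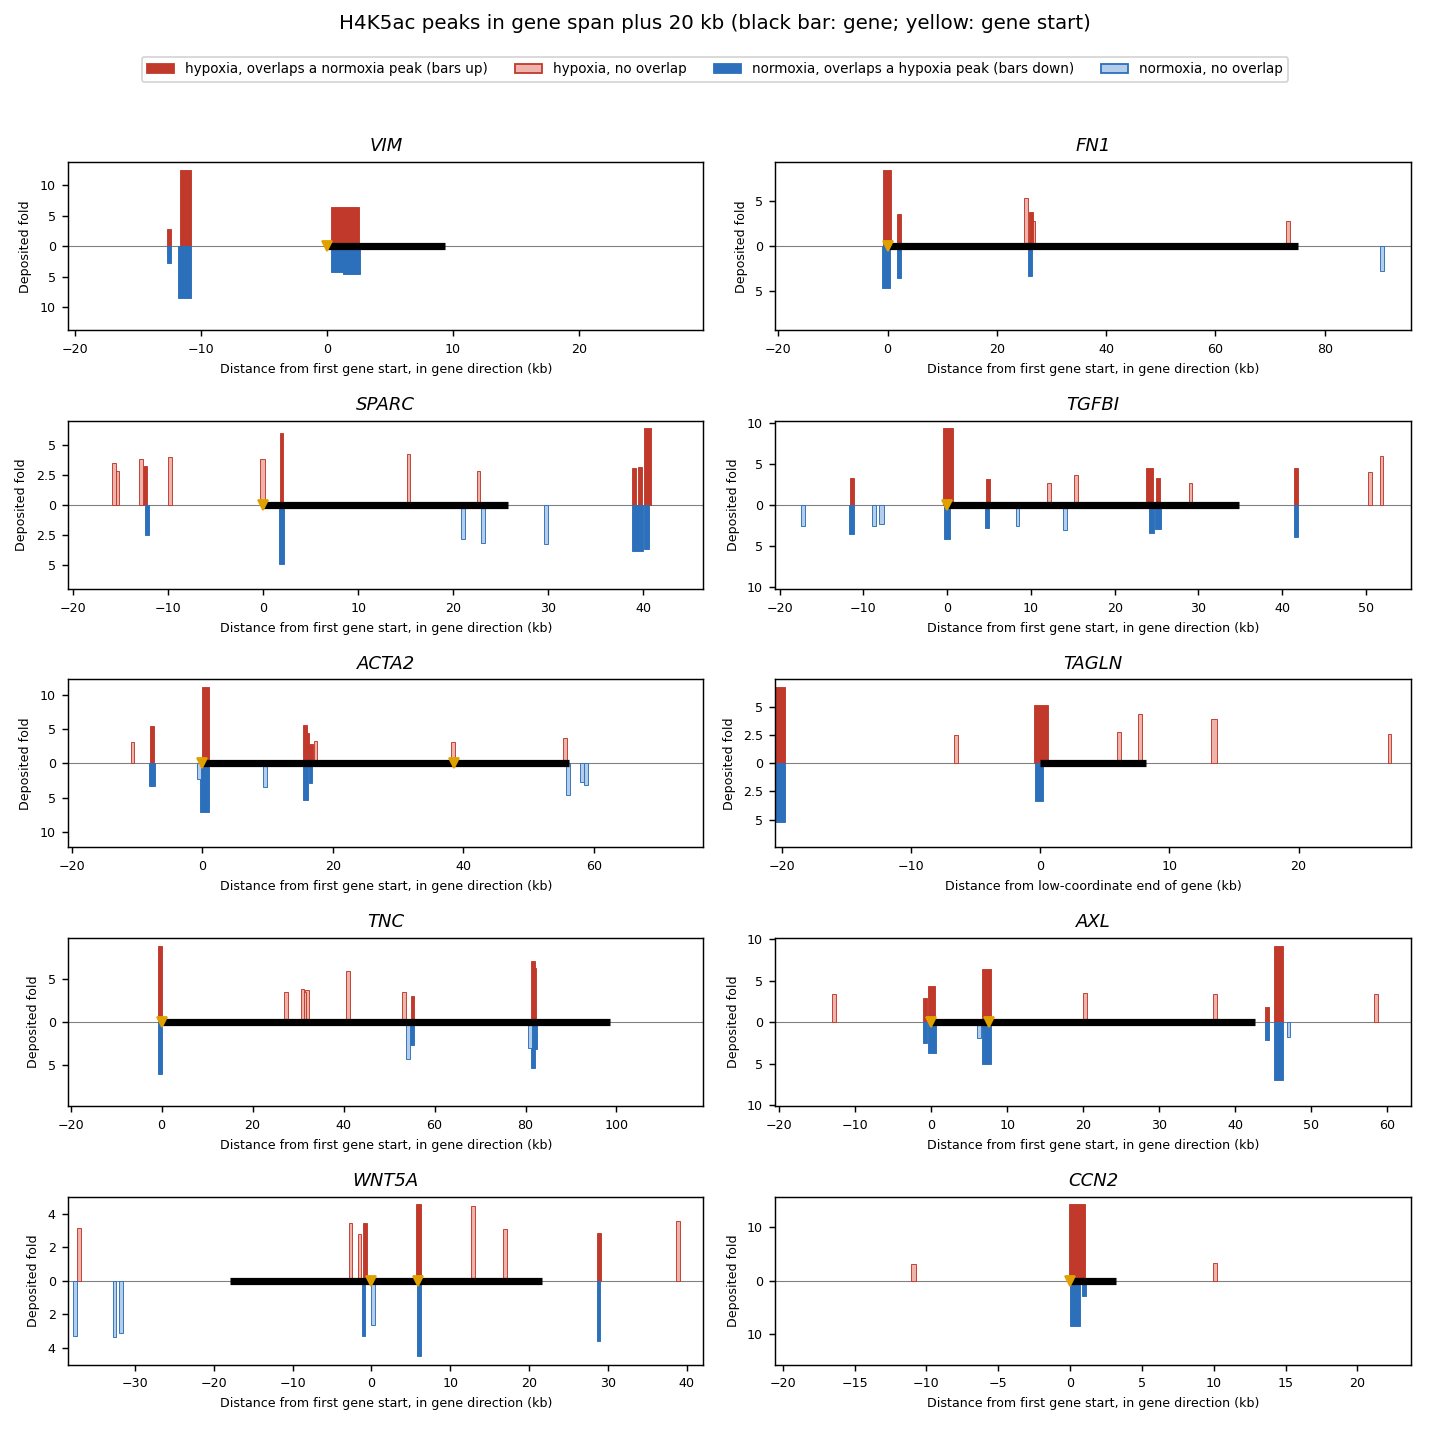
All peaks of the 10 gene windows, with hypoxia bars (red) upward and normoxia bars (blue) downward; bar height is the deposited fold over the background of the same library and the x axis is distance in kb from the first annotated start (TAGLN, from the low-coordinate end of its span). Filled bars overlap a peak of the other library and pale bars do not; narrow peaks are drawn at a minimum width, and 11 of the 37 filled hypoxia bars and 12 of the 38 filled normoxia bars are start peaks.

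Ranked among marked genes within each library, the starts spread widely. CCN2 was at percentile 95.2 of marked genes in hypoxia and 85.7 in normoxia, by the highest fold within 1 kb of a start. ACTA2 was at 83.0 and 68.4. VIM was at 37.7 in hypoxia and 16.0 in normoxia, AXL at 37.2 and 30.1, and WNT5A at 19.2 and 19.9. SPARC was at 12.6 in hypoxia. The lists differ in length and in background, so a difference between the 2 percentiles of a gene is not a change. FN1 was at 60.0 in hypoxia and 21.3 in normoxia, and TNC at 64.3 in hypoxia and near the middle of the normoxia list. TGFBI was at 68.3 in hypoxia, below CCN2 and ACTA2 alone, and at 14.5 in normoxia, the lowest of the 8 members marked there.

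**Figure D3:**
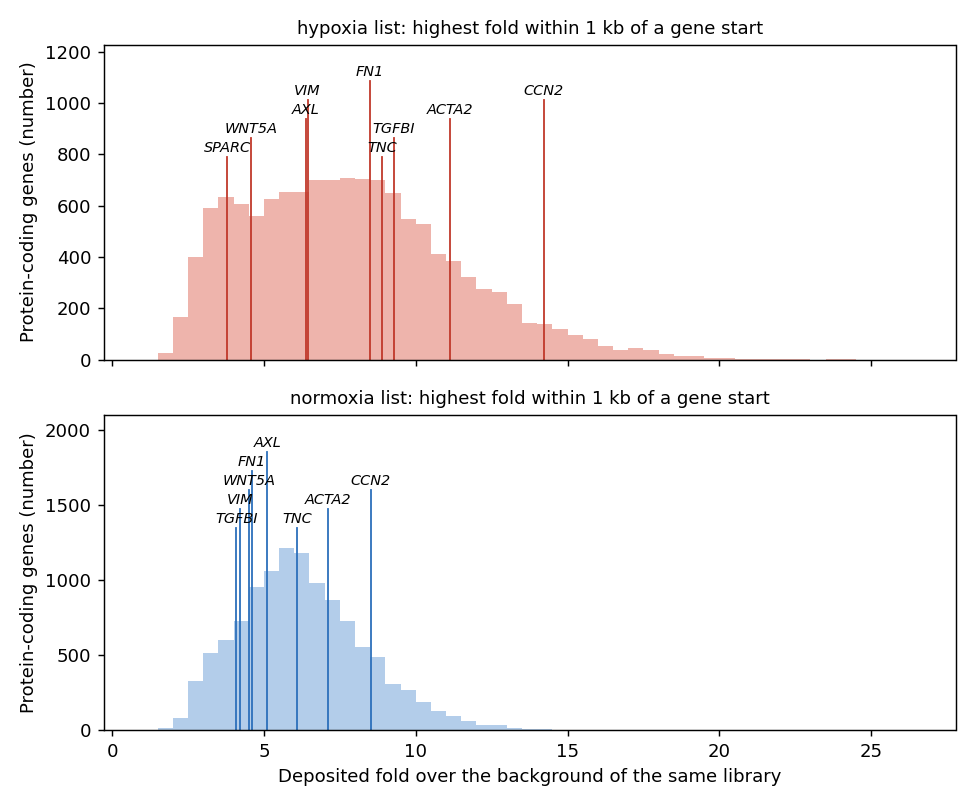
Distribution over protein-coding genes of the highest deposited fold within 1 kb of a gene start, for the hypoxia list (top) and the normoxia list (bottom), with the members marked by vertical lines. CCN2 is the member furthest to the right in each panel, at 14.2 and 8.52. Folds are relative to the background of their own library, so the panels are not compared.

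Overlap was more frequent at starts than elsewhere, for the members as for genes in general. Of 13 hypoxia start peaks 11 overlapped a normoxia peak, and of 14 normoxia start peaks 12 overlapped a hypoxia peak, against 81.1% and 93.3% of start peaks over all protein-coding genes. Elsewhere in the members' spans, 13 of 37 hypoxia peaks and 13 of 22 normoxia peaks overlapped, against 28.8% and 64.2% over all genes. In the flanks 13 of 29 and 13 of 24 did, against 33.1% and 71.0%, although a flank peak of a member can lie at the start of a neighbour and counts there in the shares over all genes. The TAGLN peak over its low-coordinate end counts as a span peak in each list, because TAGLN has no listed start. Genes without a listed start are treated likewise in the shares over all genes. Start peaks of the members had a median hypoxia width of 1032 bp and a median normoxia width of 719 bp (634 and 780 bp over all genes), against 301 and 374.5 bp in the spans and 277 and 371 bp in the flanks. Over the members, the 41 overlapping pairs of peaks had a median summit distance of 80 bp, against 73 bp over the 88528 pairs of the whole lists.

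Which library had the wider start peaks depended on how adjoining peaks were joined. Summed over the whole width of all peaks reaching within 1 kb of a start, width was greater in hypoxia for 5 of the 8 members marked in both lists (VIM, TGFBI, TNC, WNT5A and CCN2), a direction found at 33.0% of all such genes. When peaks within 500 bp were first joined, 3 of 8 were wider in hypoxia (TGFBI, TNC and WNT5A), against 34.3% of all genes. VIM and CCN2, no longer counted, are genes at which 1 hypoxia peak overlapped 2 normoxia peaks. Among the 37 hypoxia window peaks that overlapped normoxia, 4 overlapped 2 or more normoxia peaks (10.8%, against 4.70% over the whole list). The reverse held for 3 of 38 normoxia peaks (7.89%, against 6.99%).

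Counted over all peaks as called, hypoxia exceeded normoxia by less around these genes than around protein-coding genes as a whole. With strong peaks alone, equal list lengths or peaks within 500 bp joined, the members' counting interval included the ratio of all genes. With other flanks the interval did not include it. The members' ratio was 1.23 (0.826 to 1.84) against 2.04 at 10 kb, and 1.53 (1.17 to 1.99) against 2.09 at 50 kb. The 79 hypoxia peaks and 60 normoxia peaks give a ratio of 1.32 (95% counting interval 0.929 to 1.87, from the exact binomial method), against 2.06 over the windows of all protein-coding genes. The ratio over the members was not a planned measure and was added after seeing the data. With strong peaks alone the members' ratio was 1.31 (0.653 to 2.69), against 1.52 over all genes. More hypoxia than normoxia peaks were found for 7 of 10 members, where 85.7% of genes had more. Fewer were found for 2 of 10, VIM and ACTA2, where 4.38% of genes had fewer, and TGFBI had equal numbers. With peaks within 500 bp joined, no member had fewer: VIM then had 3 peaks in each library, and ACTA2 had 7 in hypoxia and 6 in normoxia. The median difference, hypoxia minus normoxia, was 2 peaks for the members and 4 for all genes. With the hypoxia list limited to as many peaks as the normoxia list, 2 of 10 members had more hypoxia peaks, against 37.6% of all genes. The ratio was then 0.783 (0.523 to 1.17) for the members and 0.995 for all genes. With peaks within 500 bp joined, the ratio was 1.43 (0.970 to 2.14) for the members and 2.13 for all genes. The intervals cover counting error only, since peaks are not replicates. Members with small windows, such as VIM and CCN2, hold few peaks and so carry little information singly.

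**Figure D4:**
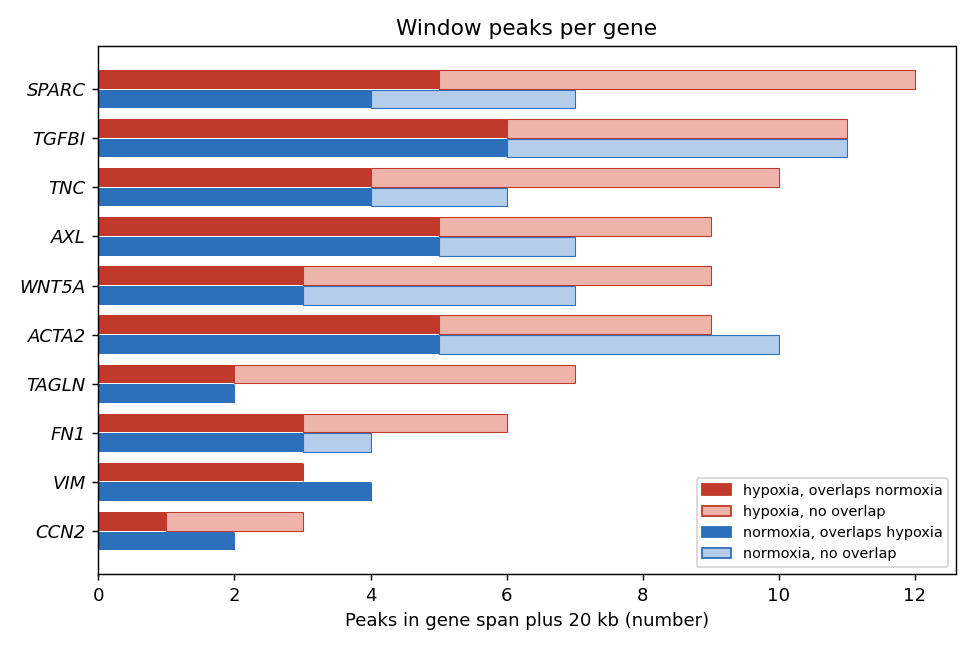
Number of H4K5ac peaks in the window of each member, with the hypoxia library (red) above the normoxia library (blue); filled parts overlap a peak of the other library by at least 1 bp and pale parts do not. SPARC has the most hypoxia peaks (12, against 7 in normoxia), and VIM and ACTA2 have fewer in hypoxia than in normoxia.

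**Figure D5:**
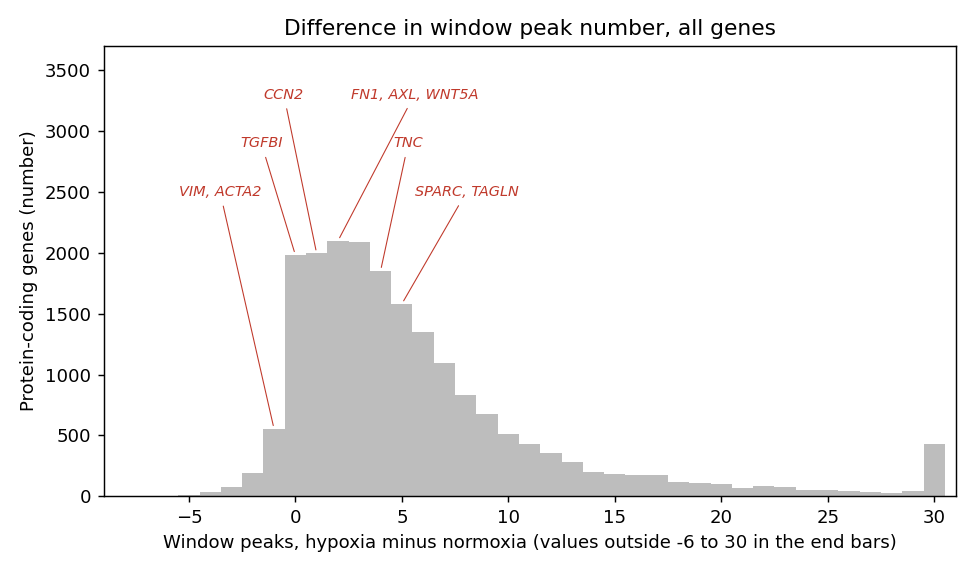
Histogram over 19974 protein-coding genes of the difference in window peak number, hypoxia minus normoxia, with the members named above their bar; the end bars collect values outside the axis range. The members lie between -1 (VIM and ACTA2) and 5 (SPARC and TAGLN).

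Slightly under 1 in 2 hypoxia peaks and more than 1 in 2 normoxia peaks of these windows had a partner. Of the hypoxia window peaks 46.8% overlapped a normoxia peak (37 of 79; 95% exact binomial interval 35.5 to 58.4%), against 35.3% over the windows of all protein-coding genes. Of the normoxia window peaks 63.3% overlapped a hypoxia peak (38 of 60; 49.9 to 75.4%), against 70.9%. Of the strong peaks, 19 of 21 in hypoxia (90.5%) and 16 of 16 in normoxia overlapped a peak of the other list, close to the 89.1% and 98.5% over the windows of all protein-coding genes. The 2 strong hypoxia peaks without a partner lay 40.9 kb into TNC and 51.8 kb from the TGFBI start, beyond the end of that gene. Hypoxia peaks that overlapped had a median width of 395 bp and those that did not 270.5 bp, and the normoxia medians were 545.5 and 296.5 bp. The narrowest peak of each whole list was 215 bp in hypoxia and 245 bp in normoxia, so widths near these values can reflect peak calling.

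Other mesenchymal and matrix genes, 25 in number, were also mostly marked at their starts, as were genes in general. Of the 21 with an annotated start, 17 were marked there in both lists, 2 in hypoxia only, none in normoxia only and 2 in neither. Of 15813 protein-coding genes with a listed start, 11337 were marked in both lists, and 9.68% in hypoxia only. The hypoxia-only starts were those of CNN1, a calponin of smooth muscle (fold 3.37), and VCAN, the proteoglycan versican (2.44). POSTN (periostin) and PDGFRB (a platelet-derived growth factor receptor), named after their values were seen, had no start peak in either list. By window, 23 of 25 had more hypoxia peaks (85.7% of all genes), 1 fewer and 1 the same. The median difference was 3, against 4 for all genes. The largest differences belonged to the actin crosslinker gene ACTN1, with 40 hypoxia and 19 normoxia peaks, and to the caldesmon gene CALD1, with 31 and 17. The smallest belonged to TIMP1, a metalloproteinase inhibitor gene, with 2 and 3, and to the integrin gene ITGAV, with 5 and 5. Differences were not scaled to window length, and gene length varied widely in this list. CALD1 lies at chr7:134711499-134970729 and TIMP1 at chrX:47582436-47586789, for example. The order of the differences is therefore not read as an order of change. The ratio over this list, 306 hypoxia to 195 normoxia peaks, was 1.57 (1.31 to 1.89), against the 2.06 of all genes. With strong peaks alone, 98 hypoxia to 65 normoxia, it was 1.51, close to the 1.52 of all genes.

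Markers of the labelled cell type were set beside these values by a peak within 1 kb of either end of the gene. All 8 squamous epithelial markers had one in hypoxia and 7 of 8 in normoxia, the exception being TP63. Of the 5 with a listed start, 4 had a peak within 1 kb of it in both lists and TP63 in neither. Over all protein-coding genes with a listed start, 11337 of 15813 were marked there in both lists. Of 8 fibroblast markers, 4 were marked in hypoxia and 3 in normoxia. Blood markers were marked at 3 of 5 genes in hypoxia and 0 of 5 in normoxia, and endothelial markers at 3 of 3 and 1 of 3. No share over all protein-coding genes is given for the measure at either gene end, so none of these counts is read as differing from genes in general. The lists differ in length, and the part of this in the results on the mesenchymal genes was not tested.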

How the data were processed

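The authors deposited a separate peak list for each condition's single library. The submitters' processing notes name MACS2, SICER and the build hg38, without versions or roles. Caller settings and a control library were not given in the sources used here. Sequencing was single-end with a read length of 75 bp, per the labels. For every peak the authors deposited an integer score, a fold (ratio over that library's own background), −log10 of the p-value, −log10 of the q-value and the summit position. The deposited score is the −log10 p-value times 10, without its decimals, for 99.998% of hypoxia and 100% of normoxia peaks. Read totals are unknown. Folds describe peaks within their own list. Where hypoxia and normoxia folds stand side by side they are descriptions, and no change between libraries was read from them.

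Peaks overlapping the span plus 20 kb of each gene were counted with Python 3.11.15, numpy 2.4.6, pandas 2.3.3 and scipy 1.17.1. Spans and starts came from RefSeq tables of GRCh38.p14; all 10 symbols matched the gene table and 9 the promoter table. Overlap meant at least 1 bp. Exons and introns were not distinguished. Reads at a summit and the local background were solved from the fold and p-value, taking the fold as (reads + 1) / (background + 1) and p as a Poisson tail. This fitted within 0.02 for 100% of 5000 peaks drawn per list. Background multiples are relative to the median of those draws. No test was possible with 1 library per condition, and intervals are 95% exact binomial ones that cover counting error only. The functions were tested on simulated data. The members, the gene lists and the motifs were chosen with earlier results of these data known. All members are named whatever their values; of the other mesenchymal genes, the 2 largest and 2 smallest differences and each gene marked at its start in 1 list are named.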

Additional observations from a re-analysis of the deposited data

How the results depend on the processing

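Each alternative changed 1 choice, except that the flank and the start window were changed together. No paired analysis was possible because each condition had 1 library. Members with a start peak stayed at 7 to 9 of 9 in hypoxia and in normoxia under every alternative tried. Over all genes the shares were 81.4% in hypoxia and 72.4% in normoxia as reported. With strong peaks alone they were 69.4% and 63.7%. Such shares are not given for the other alternatives, so the steady counts are not read as particular to the members. With peaks of −log10 q-value of at least 10, the windows held 21 hypoxia and 16 normoxia peaks, with median widths of 845 and 1020 bp. Overlap was 71.4% of hypoxia and 93.75% of normoxia peaks. Here both lists were cut to strong peaks, whereas the overlap of strong peaks given earlier was with the whole other list. In this setting 4 of 10 members had more hypoxia peaks (50.9% of all genes). Overlap shares over all genes are not given for the alternatives. With equal list lengths there were 47 hypoxia peaks with a median width of 393 bp, and 63.8% overlapped a normoxia peak. Of 10 members, 2 had more hypoxia peaks (37.6% of all genes) and 8 had fewer (37.1%). The ratio was 0.783 (0.995 over all genes). The members' ratio was a measure added after seeing the data, in this setting and in every other. With a flank of 50 kb and a start window of 2000 bp there were 148 hypoxia and 97 normoxia peaks. A flank of 10 kb with a start window of 500 bp, joining peaks and requiring 50% overlap moved fewer values over all members. Under them, no peak total, ratio, overlap share or median width moved beyond its interval or 1.5 times its count. The same held for the counts of members with a start peak or with more hypoxia peaks. Joining peaks moved members with wider hypoxia start peaks from 5 to 3 of 8 (33.0% and 34.3% of all such genes). It also moved the count of members with fewer hypoxia peaks, given below. Outside the equal-length setting the ratio was 1.23 to 1.53 for the members and 1.52 to 2.13 for all genes, lowest for all genes with strong peaks alone. Of 100 recomputed peak numbers of single genes, 46 moved by over 1.5 times, 18 of them with strong peaks alone and 13 with the longer flank. Of 10 members, 3 had fewer hypoxia peaks with the 10 kb flank (5.86% of all genes) and 0 with joined peaks (3.25%), against 2 as reported (4.38%). The causes were not tested. Read depth is unknown, so a peak in 1 list alone was not detectable in the other at its own threshold, and is not shown to be absent.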
